A study of Mus musculus with 10 samples.

Results

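Mouse embryos at the 8-cell stage that carry the motif knockout named Arpc1bE_CdxE1_KO were compared with control embryos, named Ctrl, by total RNA sequencing. The knockout libraries are 2 and the control libraries 2, of 10 libraries in the series. The name of the knockout points to the genes Arpc1b and Cdx2, and the treatment label gives it as a knockout of Tfap2c motifs, so it removes places where the factor Tfap2c may bind and leaves the Tfap2c gene itself in the genome. A second motif knockout, CdxE2_KO (2 libraries), and a knockdown of the factor, siTfap2c (2 libraries), are set beside it. The genotype label of every sample is BDF1, and whole embryos were lysed after their zona and polar bodies had been taken off. The labels do not give the positions of the removed motifs, how they were removed, what the control embryos received, or how many embryos made a library. They also do not say whether the libraries of a group came from separate embryo pools, so a p-value here covers the spread from library to library, which may be technical. A gene was kept if it reached 1 linear unit in 2 or more of the 4 libraries compared, which left 10433 of the 24421 genes deposited, and each library was centred on its median over them.

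Tfap2c belongs to the AP-2 family of transcription factors, which bind GC-rich palindromic DNA, and it is known in the early mouse embryo for its part in switching on genes of the trophectoderm, the outer layer that will form the placenta. Cdx2 encodes a homeodomain factor that specifies and maintains that layer. Arpc1b encodes a subunit of the Arp2/3 complex, which nucleates branched actin filaments, and branched actin at the cell cortex is part of how outer cells of the embryo become polarised. A motif knockout asks what becomes of a gene when its regulatory DNA is altered while the factor remains.

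The start sites of both genes in the name lie on chromosome 5, 2186.59 kb apart. Arpc1b occupies chr5:145114215-145130705 on the plus strand and Cdx2 chr5:147300805-147307270 on the minus strand (GENCODE M21, mm10). The windows from 250 bases before to 50 bases after their RefSeq start sites are shown because they are the DNA nearest to the readouts of the knockout (RefSeq, GRCm38.p6, chr5:145114006-145114305, plus strand, and chr5:147307200-147307499, minus strand). Capitals mark GCCNNNGGC and GCCNNNNGGC, palindromes to which AP-2 factors can bind, searched on both strands. Other AP-2 sequences were not searched.
Arpc1b promoter: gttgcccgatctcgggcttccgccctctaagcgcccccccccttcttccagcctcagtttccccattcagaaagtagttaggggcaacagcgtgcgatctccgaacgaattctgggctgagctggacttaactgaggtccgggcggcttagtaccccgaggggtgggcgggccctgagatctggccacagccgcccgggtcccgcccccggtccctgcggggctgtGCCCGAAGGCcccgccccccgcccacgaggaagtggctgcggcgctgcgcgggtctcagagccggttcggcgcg
Cdx2 promoter: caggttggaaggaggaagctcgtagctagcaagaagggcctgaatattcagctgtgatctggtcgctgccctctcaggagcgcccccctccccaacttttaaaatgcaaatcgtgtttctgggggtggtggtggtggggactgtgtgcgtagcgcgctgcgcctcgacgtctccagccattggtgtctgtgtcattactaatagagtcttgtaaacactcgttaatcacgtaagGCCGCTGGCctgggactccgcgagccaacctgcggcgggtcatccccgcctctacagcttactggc
The Arpc1b window held 1 match to GCCNNNNGGC, starting 24 bases before the start site, and 0 to GCCNNNGGC. The Cdx2 window held 1 match to GCCNNNGGC, starting 16 bases before the start site, and 0 to GCCNNNNGGC. Of 32851 promoter windows of this length 16.6% held GCCNNNGGC, 14.8% held GCCNNNNGGC and 27.0% held one or both, and the matches shown do not overlap one another. These windows are a description of the sequence, and whether a removed motif lies in them is not given in the labels.

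The libraries of the motif knockouts stood apart from all the others. The linear values of a library added up to 498621 and 483600 units in Arpc1bE_CdxE1_KO, to 478651 and 481129 in CdxE2_KO, and to 389715 and 390386 in Ctrl, beside 388454 to 395401 in the 4 knockdown libraries of the series. Small nucleolar and Cajal body RNAs held 2.70% and 2.03% of these sums in Arpc1bE_CdxE1_KO, 1.99% and 2.19% in CdxE2_KO, and 0.677% and 0.632% in Ctrl, with 0.714% to 0.787% in the knockdowns. The knockout and this difference between libraries cannot be told apart in the comparison with Ctrl. CdxE2_KO stood with Arpc1bE_CdxE1_KO in both measures, and the direct comparison of these knockouts is given beside that with Ctrl. Factors that 8-cell embryos express were present in every library. Pou5f1, which encodes Oct4, lay at 6.41 and 6.42 in Arpc1bE_CdxE1_KO, 6.16 and 5.99 in CdxE2_KO and 6.71 and 6.71 in Ctrl. Here and below, a level is a log2(value + 1) after centring, put back on the mean of the library medians, so that a level can fall slightly under 0.

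In the comparison with Ctrl, 358 of 10433 genes changed at an adjusted p under 0.05 by limma, 3.43% of those tested. Of these, 196 were higher (1.88%) and 162 lower (1.55%), and 88 and 37 of them by at least 2-fold. The count was 89 without Ctrl replicate 1, 69 without Ctrl replicate 2, 194 without Arpc1bE_CdxE1_KO replicate 1 and 1223 without its replicate 2, and 2733 (2640 higher, 93 lower) on the values as deposited, where the median log2 fold change of all genes was 0.28 instead of -0.04. On the centred values 2404 of the 10433 genes had an unadjusted p under 0.05 by limma against Ctrl, and 1184 had one against CdxE2_KO. Counts of this kind in the lists below are to be read against these. The values of the knockout libraries lay wholly above those of Ctrl for 22.4% of genes and wholly below for 31.6%. CdxE2_KO against the same Ctrl libraries gave 743 calls, 7.12% of genes, with 305 higher (2.92%) and 438 lower (4.2%). Both comparisons use the same controls, so what they have in common is not read as a result.

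Arpc1b, the first gene in the name, fell. Its level was 3.15 and 3.22 in Arpc1bE_CdxE1_KO, 4.73 and 4.54 in CdxE2_KO, and 4.94 and 4.69 in Ctrl. Both knockout libraries lay far below the other 4, and CdxE2_KO overlapped Ctrl. Against Ctrl the difference was -1.62 (SE 0.13, adjusted p = 0.00096), and the call held without each of the 4 libraries (highest adjusted p 0.011). Against CdxE2_KO it was -1.45 (SE 0.13, adjusted p = 0.022), so the knockouts differed by the direct test. That second call was lost without Arpc1bE_CdxE1_KO replicate 1 (adjusted p = 0.054), without either Ctrl library (0.057 and 0.056) and without either CdxE2_KO library (0.088 and 0.091), with differences from -1.54 to -1.35, and also with no filter on low values (0.12) and without the variance trend (0.10). In siTfap2c, where 25.4% of these genes were called against Ctrl in a fit of all 10 libraries from tables that may have been scaled apart, Arpc1b differed from Ctrl by -3.36 (adjusted p = 1.9e-07). In whole embryos, fewer cells that express a gene and less RNA per cell cannot be told apart, here and for every gene below.

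Cdx2, the trophectoderm factor, also fell, in both motif knockouts. It lay at 0.65 and 1.45 in Arpc1bE_CdxE1_KO, 0.71 and 0.80 in CdxE2_KO, and 2.58 and 2.69 in Ctrl. The values of the 4 motif knockout libraries overlapped each other and lay under both Ctrl libraries. Cdx2 averaged 1.29 linear units in Arpc1bE_CdxE1_KO, 0.83 in CdxE2_KO and 4.34 in Ctrl. Arpc1bE_CdxE1_KO replicate 1 was under 1 linear unit, so Cdx2 passed the filter through the Ctrl libraries. It lay near the floor in both motif knockouts, and the sizes of its differences are uncertain. Arpc1bE_CdxE1_KO differed from Ctrl by -1.58 (SE 0.26, adjusted p = 0.025), a call lost without Ctrl replicate 1 (0.12) and without Ctrl replicate 2 (0.18). CdxE2_KO differed from Ctrl by -1.88 (adjusted p = 0.011), and Arpc1bE_CdxE1_KO from CdxE2_KO by 0.30 (SE 0.26, adjusted p = 0.66), which does not show that the knockouts act alike. siTfap2c differed from Ctrl by -2.04 (adjusted p = 0.00026).

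Tfap2c itself lay at 6.38 and 6.58 in Arpc1bE_CdxE1_KO and at 6.83 and 6.82 in Ctrl, a log2 fold change of -0.35 that did not pass (adjusted p = 0.11). The difference in siTfap2c, where the factor was knocked down, was -2.62. Klf5, a Krüppel-like factor of the early embryo that acts in both first lineages, lay at 6.86 and 7.05 in Arpc1bE_CdxE1_KO and at 7.42 and 7.34 in Ctrl (-0.42, adjusted p = 0.075), against -1.80 in siTfap2c. For both genes the knockout libraries lay below Ctrl without overlap, as they did for 31.6% of all genes.

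**Figure D1:**
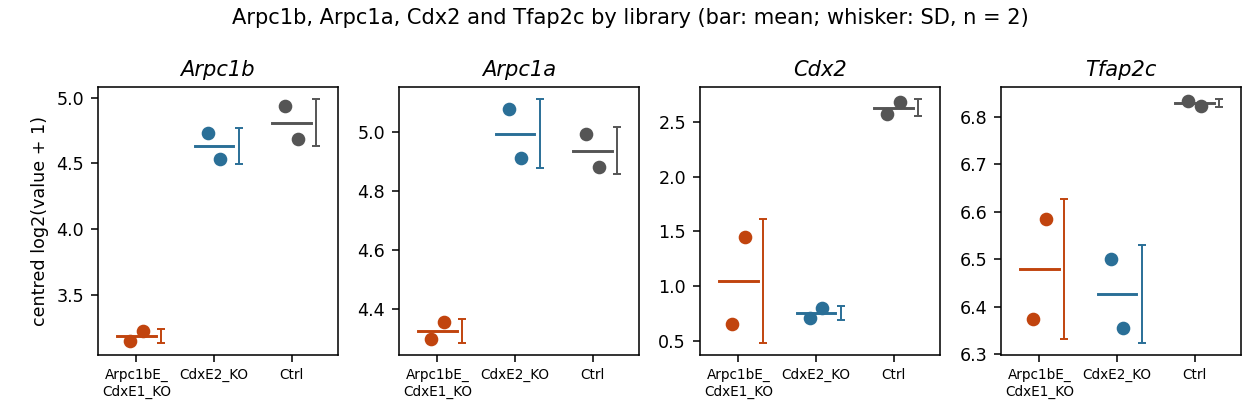
Level (centred log2(value + 1)) of Arpc1b, Arpc1a, Cdx2 and Tfap2c in each library of Arpc1bE_CdxE1_KO, CdxE2_KO and Ctrl; points are libraries, bars are means and whiskers show the SD (n = 2), and the vertical axes differ and do not start at 0. Arpc1b was low in Arpc1bE_CdxE1_KO only among these 3 groups, at 3.15 and 3.22, whereas Cdx2 was under 1.5 in all 4 motif knockout libraries.

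The Arp2/3 complex is built from the actin-related proteins Actr2 and Actr3 and the subunits Arpc1 to Arpc5, some of which exist as paired copies. Of its 10 deposited genes, 9 were tested and 2 fell, Arpc1b and its copy Arpc1a, while 0 rose. The median log2 fold change was -0.14, against -0.04 over all genes, of which 1.55% were called lower. Arpc1a, which can take the place of Arpc1b in the complex, lies next to it on chromosome 5 (chr5:145083830-145108761). It lay at 4.30 and 4.36 in Arpc1bE_CdxE1_KO, 5.08 and 4.91 in CdxE2_KO, and 4.99 and 4.88 in Ctrl. Both knockout libraries lay below the other 4. It differed from Ctrl by -0.61 (SE 0.10, adjusted p = 0.028), a call lost without Arpc1bE_CdxE1_KO replicate 1 (0.076), Ctrl replicate 1 (0.18) or Ctrl replicate 2 (0.16). Against CdxE2_KO the difference was -0.67 (adjusted p = 0.17) and in siTfap2c, against Ctrl, -0.11.

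The other 7 subunits did not pass. Their differences from Ctrl ran from -0.19 for Arpc4, a core subunit, to 0.13 for Actr2, with -0.17 for Actr3, -0.14 for Arpc2, 0.08 for Arpc3, 0.01 for Arpc5 and 0.00 for Arpc5l, whose signs are not settled, since Actr3, Arpc2 and Arpc4 were above 0 on the values as deposited and Arpc3, Arpc5 and Arpc5l fell under 0 in 1 or more of the alternatives tried. In the list of Arp2/3 activators and inhibitors 0 of 24 genes passed by limma (8 at an unadjusted p under 0.05), with a median of -0.13.

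Among 41 genes of actin filaments and the cortex 1 rose and 1 fell, with a median of -0.07. Over all genes 1.88% were called higher and 1.55% lower, so these counts are not read as a result about the list. Tmsb10, a thymosin that binds actin monomers, lay at 7.25 and 6.93 in Arpc1bE_CdxE1_KO and 6.45 and 6.51 in Ctrl, a rise of 0.61 (adjusted p = 0.044). It differed by -1.13 from Ctrl in siTfap2c. Actg1, cytoplasmic gamma actin, lay at 5.21 and 5.32 in Arpc1bE_CdxE1_KO and 5.85 and 5.84 in Ctrl (-0.58, adjusted p = 0.020), with -0.82 in CdxE2_KO against Ctrl. Both calls were lost when 1 Ctrl library was left out, whichever it was.

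Genes near Arpc1b and Cdx2 were looked at together, as a summary chosen after values had been seen and given as a description with no test. Between the pair lie 17 other tested genes. All 17 were lower in Arpc1bE_CdxE1_KO than in Ctrl, with log2 fold changes from -0.98 to -0.10 and a median of -0.38. The libraries lay below Ctrl without overlap for 13 of them (76.5%), against 30.6% of the 9738 genes on other chromosomes. Within 3 Mb before Arpc1b this held for 20 of 30 tested genes (66.7%). It held for 50% of those after Cdx2 and 45.1% on the rest of chromosome 5. Genes lower than Ctrl made up 80%, 87.5% and 69.6% of these regions and 55.0% of the other chromosomes. Against CdxE2_KO 16 of the 17 were lower, with a median of -0.35. CdxE2_KO against Ctrl had a median of -0.04 over the same genes, with 9 of 17 lower.

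Outside this interval the medians against CdxE2_KO were nearer to 0. The 30 tested genes within 3 Mb before Arpc1b had a median of -0.09 and the 16 after Cdx2 one of -0.05. The rest of chromosome 5 (616 genes) had -0.01 and the other chromosomes 0.01. In the comparison with Ctrl the same regions had medians of -0.26, -0.25, -0.14 and -0.03, so chromosome 5 as a whole lay below the other chromosomes there. The interval's median against Ctrl was -0.53 without Arpc1bE_CdxE1_KO replicate 1 (17 lower) and -0.25 without replicate 2 (14 lower), and -0.06 on the values as deposited (11 lower).

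Of the 17 genes 3 passed against Ctrl, all lower, and 0 passed against CdxE2_KO by limma. Over all genes 1.55% were called lower than Ctrl. Such calls numbered 4 of 30 within 3 Mb before Arpc1b, 5 of 16 after Cdx2 and 27 of 616 on the rest of chromosome 5. They were thus not particular to the interval. Against CdxE2_KO 9 of the 17 genes had an unadjusted p under 0.05 by limma, beside 1184 of all 10433 genes. Mtif3, a mitochondrial translation initiation factor, lay at 2.67 and 2.86 in Arpc1bE_CdxE1_KO, 3.00 and 3.15 in CdxE2_KO and 3.80 and 3.69 in Ctrl (-0.98, adjusted p = 0.011). Cdk8, the kinase of the Mediator complex, named here after its values were seen, lay at 5.79 and 5.79 in Arpc1bE_CdxE1_KO, 6.30 and 6.24 in CdxE2_KO and 6.24 and 6.26 in Ctrl (-0.46, adjusted p = 0.031). Ptcd1, a mitochondrial RNA-binding protein, lay at 2.07 and 2.06 in Arpc1bE_CdxE1_KO, 2.70 and 2.76 in CdxE2_KO and 2.72 and 2.65 in Ctrl (-0.62, adjusted p = 0.0496). For Cdk8 and Ptcd1 the low libraries were those of Arpc1bE_CdxE1_KO alone, while Mtif3 was low in both knockouts. All 3 calls were lost when either of the Ctrl libraries was left out.

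Pdap1, which encodes a PDGF-associated phosphoprotein, overlaps the end of Arpc1b on the other strand (chr5:145128769-145140238). Its level was 6.41 and 6.71 in Arpc1bE_CdxE1_KO, 7.29 and 7.17 in CdxE2_KO, and 7.07 and 7.10 in Ctrl, a difference of -0.52 from Ctrl that did not pass (adjusted p = 0.057). The library kit keeps the strand, per the labels, but whether the authors' quantification used it is not given in the sources used here, so reads of Arpc1b and Pdap1 may not have been separated. Among the nearest tested genes on each side, Cpsf4, a subunit of the mRNA cleavage and polyadenylation machinery, differed from Ctrl by -0.60 and Lnx2, a ubiquitin ligase, by -0.56, and neither passed. On the far side of Cdx2, Pan3, which takes part in shortening poly(A) tails, fell by 0.59 on the log2 scale (adjusted p = 0.037) and Ubl3, a ubiquitin-like protein, by 0.60 (adjusted p = 0.031). Both were also low in CdxE2_KO against Ctrl, Pan3 by -0.47 (adjusted p = 0.048) and Ubl3 by -0.44 (adjusted p = 0.051). Their differences from CdxE2_KO were -0.12 and -0.16, not called. The Pan3 and Ubl3 calls against Ctrl were lost without Arpc1bE_CdxE1_KO replicate 1 and without either Ctrl library.

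**Figure D2:**
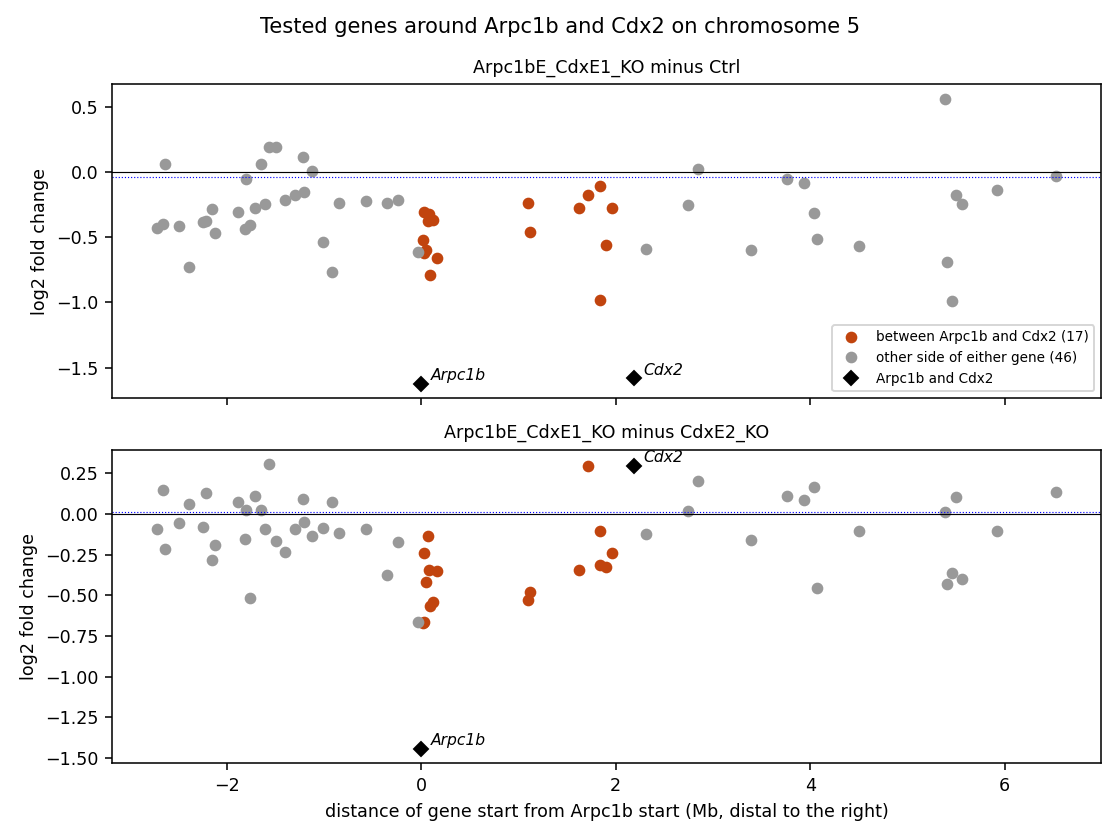
Log2 fold change of each tested gene near Arpc1b and Cdx2 against the distance of its start from the Arpc1b start in Mb; the upper panel is Arpc1bE_CdxE1_KO minus Ctrl, the lower panel Arpc1bE_CdxE1_KO minus CdxE2_KO, diamonds are Arpc1b and Cdx2, coloured points the 17 genes between the pair, grey points genes on the other side of either, and the dotted line is the median of all genes tested. All 17 lie under 0 in the upper panel and 16 of them in the lower one.

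Directly against CdxE2_KO, 5 of 10433 genes passed by limma (0.0479%), 1 higher (0.00958%) and 4 lower (0.0383%), with 1184 at an unadjusted p under 0.05. Arpc1b was one of the lower genes. Dpm1-adnp, a readthrough transcript of the neighbours Dpm1 and Adnp on chromosome 2, lay at 3.97 and 3.56 in Arpc1bE_CdxE1_KO, 6.29 and 5.65 in CdxE2_KO and 6.16 and 6.19 in Ctrl. It was low in Arpc1bE_CdxE1_KO alone, by -2.21 against CdxE2_KO (adjusted p = 0.037) and -2.41 against Ctrl (adjusted p = 0.0018). A readthrough transcript shares exons with its genes, so reads may be split among the 3 entries, which was not tested. Dpm1, a subunit of dolichol-phosphate mannose synthase, rose, at 4.90 and 5.39 in Arpc1bE_CdxE1_KO and 3.65 and 3.24 in Ctrl (SE 0.19, adjusted p = 0.0061). In CdxE2_KO Dpm1 lay at 4.50 and 4.43, also above Ctrl (1.02, adjusted p = 0.029). Arpc1bE_CdxE1_KO differed from CdxE2_KO by 0.68 at Dpm1, which was not called (adjusted p = 0.34). Adnp, a chromatin-associated homeobox protein, fell by 1.18 (adjusted p = 0.043), a call lost without Arpc1bE_CdxE1_KO replicate 1 and without either Ctrl library.

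Dbf4, the activating subunit of a kinase that fires replication origins, is outside the naming rule and was named after its values were seen. It lay at 6.63 and 6.67 in Arpc1bE_CdxE1_KO, 7.38 and 7.46 in CdxE2_KO and 7.18 and 7.21 in Ctrl, a difference of -0.77 from CdxE2_KO (adjusted p = 0.041) and of -0.54 from Ctrl (adjusted p = 0.017). It lies on chromosome 5, far from the interval (chr5:8396973-8422716). The remaining pair stood apart in CdxE2_KO rather than here. Lpar1, a receptor for lysophosphatidic acid, lay at 4.20 and 4.33 in Arpc1bE_CdxE1_KO, 2.15 and 1.78 in CdxE2_KO and 4.42 and 4.30 in Ctrl, so it was higher here than in CdxE2_KO by 2.30 (adjusted p = 0.0042) and not called against Ctrl (-0.09, adjusted p = 0.75). Lsm5, of the ring that binds U6 RNA and decapping substrates, lay at 3.67 and 3.58 in Arpc1bE_CdxE1_KO, 5.44 and 5.30 in CdxE2_KO and 3.73 and 3.84 in Ctrl (-1.74 against CdxE2_KO, adjusted p = 0.0042). The other 11 tested Lsm genes did not pass against CdxE2_KO.

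In the trophectoderm program Cdx2 was the one call. Of 18 tested genes 1 fell and 0 rose, with a median of 0.05. Fgfr2, an FGF receptor of trophoblast named after its values were seen, lay at 4.05 and 3.99 in Arpc1bE_CdxE1_KO and 4.15 and 4.06 in Ctrl (-0.08, adjusted p = 0.67), against a difference of -2.07 in siTfap2c. The list of pluripotency and the inner cell mass had 27 tested genes, of which 5 fell and 1 rose, with a median of -0.27. Over all genes 1.55% fell and 1.88% rose, with a median of -0.04. In CdxE2_KO against the same Ctrl libraries 7 of the list fell and 1 rose, with a median of -0.32. Over all genes that comparison had 4.2% lower and 2.92% higher, with a median of -0.05. Nr5a2, a nuclear receptor that binds enhancers of early embryonic genes, lay at 8.62 and 8.70 in Arpc1bE_CdxE1_KO and 9.36 and 9.36 in Ctrl (-0.70, adjusted p = 0.0080). Tet1, which oxidises methylated DNA, differed by -0.72 (adjusted p = 0.023), Carm1, an arginine methyltransferase of histones, by -0.63 (adjusted p = 0.028), and Klf4, a Krüppel-like factor of pluripotent cells, by -0.52 (adjusted p = 0.041). Sall1, a zinc finger factor, differed by -0.56 (adjusted p = 0.045). Dppa4, a chromatin protein of early embryos, rose by 0.57 (adjusted p = 0.034). Tdgf1, a co-receptor of Nodal named after its values were seen, lay at 6.57 and 6.37 in Arpc1bE_CdxE1_KO and 6.17 and 5.94 in Ctrl (0.41, adjusted p = 0.089), while siTfap2c differed from Ctrl by -2.84.

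The list had 0 calls by limma without Ctrl replicate 1 or without Ctrl replicate 2, 1 without Arpc1bE_CdxE1_KO replicate 1 and 13 without its replicate 2. Against CdxE2_KO its median was 0.05, with 0 calls by limma and 8 genes at an unadjusted p under 0.05 (1184 of all 10433). In the Krüppel-like factors 1 of 11 fell, Klf4, with a median of -0.22, and in the Hippo pathway, which reads cell position in the early embryo, 1 of 26 fell. That gene was Vgll4, a repressor of Tead factors, at 1.97 and 1.87 in Arpc1bE_CdxE1_KO and 2.63 and 2.69 in Ctrl (-0.74, adjusted p = 0.046). The Vgll4 call was lost when any 1 of the 4 libraries was left out. In CdxE2_KO Vgll4 differed from Ctrl by -0.95 (adjusted p = 0.016). Over all genes 1.55% were called lower, so single calls are not read as results about these lists. By limma 0 genes passed among 33 of cell polarity and junctions (median -0.16, with 8 at an unadjusted p under 0.05), 8 AP-2 factors and coregulators (0.03, with 4), 9 of primitive endoderm (-0.25, with 3) and 11 of the water and ion transport that fills the blastocyst cavity (-0.15, with 2). Over all 10433 genes 2404 had an unadjusted p under 0.05, so these counts are not read as results about the lists. Of 26 genes of DNA methylation and chromatin repression 1 fell, Tet1 again (median -0.10).

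Several genes of the p53 response, which halts or kills cells with damaged DNA, were higher in the knockout. Of 34 tested 10 rose and 1 fell, with a median of 0.35, against 1.88% and 1.55% of all genes and -0.04. Ccng1, a cyclin induced by p53, lay at 4.41 and 4.14 in Arpc1bE_CdxE1_KO, 3.57 and 3.60 in CdxE2_KO and 2.86 and 2.93 in Ctrl, a rise of 1.38 (SE 0.13, adjusted p = 0.0020). Plk2, a polo-like kinase, rose by 0.97 (adjusted p = 0.0058), Trp53inp1, which strengthens p53 activity, by 0.80 (adjusted p = 0.013), and Cdkn1a, the cell cycle inhibitor p21, by 1.09 (adjusted p = 0.046). The other 6 were Bbc3, Zmat3, Polk, Tnfrsf10b, Pmaip1 and Eda2r. Mdm4, an inhibitor of p53, was the gene that fell, at 6.48 and 6.55 in Arpc1bE_CdxE1_KO, 6.63 and 6.65 in CdxE2_KO and 7.57 and 7.53 in Ctrl (-1.03, SE 0.08, adjusted p = 0.00088).

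Called members of the p53 list numbered 3 without Ctrl replicate 1, 3 without Ctrl replicate 2, 6 without Arpc1bE_CdxE1_KO replicate 1 and 11 without its replicate 2, and Ccng1 and Mdm4 kept their calls in all 4. In CdxE2_KO against the same controls 8 rose and 2 fell, and Arpc1bE_CdxE1_KO against CdxE2_KO had a median of 0.01 with 0 calls by limma (6 at an unadjusted p under 0.05). In siTfap2c, Ccng1 differed from Ctrl by 1.28, Plk2 by 1.16, Trp53inp1 by 1.43, Cdkn1a by 1.66 and Mdm4 by 0.20. Among 45 DNA repair genes Rad50, of the complex that binds broken ends, rose by 0.46 and Brca2, of homologous recombination, fell by 0.69, with a median of -0.03. Brca2 is another gene of chromosome 5. Among 26 heat shock and stress genes Ddit4, an inhibitor of mTOR signalling, rose by 0.58 and the chaperone Hsph1 fell by 0.57, with a median of 0.12. The calls of these 4 genes were lost when either of the Ctrl libraries was left out. With 1.88% of all genes called higher and 1.55% lower, they are not read as results about the repair and stress lists.

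**Figure D3:**
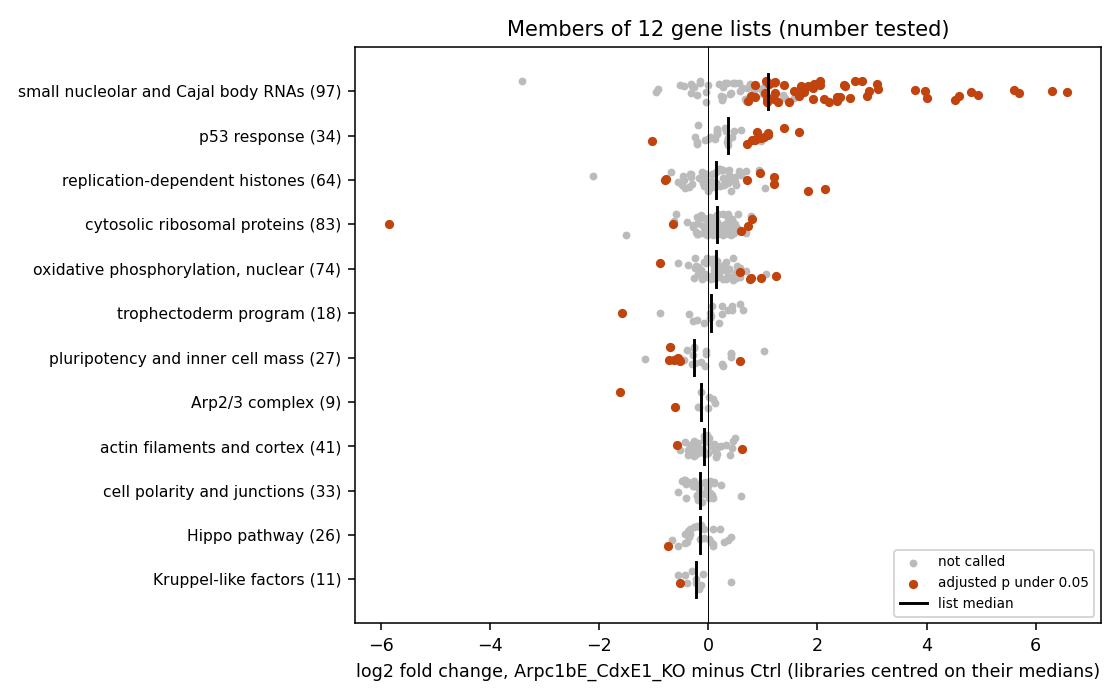
Log2 fold change, Arpc1bE_CdxE1_KO minus Ctrl, of the tested members of 12 gene lists, with the number tested in brackets; coloured points passed at an adjusted p under 0.05, grey points did not, and the bar is the list's median. Small nucleolar and Cajal body RNAs (median 1.10) and p53 response genes (median 0.35) lie to the right, and Arpc1b is the lowest point of the Arp2/3 row.

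The changes of greatest size were in small RNAs. Small nucleolar RNAs guide chemical modification and processing of ribosomal RNA, and small Cajal body RNAs do so for spliceosomal RNAs. Of 119 deposited 97 were tested, and 52 were called higher and 0 lower, with a median of 1.10. Over all genes 1.88% were called higher and 1.55% lower, with a median of -0.04. Of the 97, 14 lay under 0, down to -3.41, and were not called. Of the 52, 6 averaged under 1 linear unit in Ctrl and so were kept through the knockout libraries, which sets their direction, and 46 did not. Snord15b had levels of 10.18 and 9.83 in Arpc1bE_CdxE1_KO, 9.71 and 9.62 in CdxE2_KO, and 3.59 and 3.82 in Ctrl, a difference of 6.30 (SE 0.14, adjusted p = 2.7e-06). Snora26 lay at 7.17 and 6.46 in Arpc1bE_CdxE1_KO, 6.58 and 6.59 in CdxE2_KO and 0.25 and 0.22 in Ctrl. It is among the RNAs under 1 linear unit in Ctrl, so no fold is given.

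Both are shown because they stand for the classes of these guides (GENCODE M21, mm10). Snord15b, of the C/D class, is at chr7:99479563-99479707 on the minus strand and Snora26, of the H/ACA class, at chr5:74093530-74093650 on the plus strand. Capitals mark TGATGA and CTGA, the forms searched for the C and D boxes on the RNA's own strand, in Snord15b, and the ACA that stands 3 bases before the end in Snora26.
Snord15b: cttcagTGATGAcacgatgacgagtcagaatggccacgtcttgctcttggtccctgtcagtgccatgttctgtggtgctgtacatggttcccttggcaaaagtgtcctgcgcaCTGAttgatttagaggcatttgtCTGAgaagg
Snora26: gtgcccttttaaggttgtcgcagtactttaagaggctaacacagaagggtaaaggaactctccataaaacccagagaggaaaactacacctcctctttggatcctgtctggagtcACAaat
TGATGA together with CTGA was found in 75.5% of the 98 annotated transcripts named Snord, and an ACA at that place in 83.3% of the 42 named Snora. Snora47 (5.60) and Snora16a (3.79), both of the H/ACA class by name, rose as well (adjusted p = 3.6e-06 and 1.7e-05). These 4 RNAs differed from CdxE2_KO by 0.17 to 0.36, and the list had 0 calls there by limma (15 at an unadjusted p under 0.05), and in siTfap2c they differed from Ctrl by -0.04 (Snord15b), -0.02 (Snora26), 0.12 (Snora47) and 0.10 (Snora16a). The list's calls numbered 32 without Ctrl replicate 2, and CdxE2_KO against Ctrl gave 48 higher. Most such RNAs are cut from introns of host genes, and the authors' counting could split reads between guide and host, which was not tested. Of 15 host genes 1 rose, Snhg7, by 0.75 (adjusted p = 0.030), with a median of 0.15. The Snhg7 call was lost without Arpc1bE_CdxE1_KO replicate 1 and without either Ctrl library. With 1.88% of all genes called higher, it is not read as a result about the host genes.

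Other short structural RNAs moved with them. Of 7 tested, 5 rose and 0 fell, with a median of 1.25, against 1.88% and 1.55% of all genes and -0.04. Vaultrc5, a vault RNA, lay at 6.51 and 6.03 in Arpc1bE_CdxE1_KO, 6.06 and 6.02 in CdxE2_KO and 0.41 and 0.25 in Ctrl. It averaged under 1 linear unit in Ctrl and was kept through the knockout libraries, which sets its direction, so no fold is given. Rnu11 and Rnu12, the U11 and U12 RNAs of the minor spliceosome, rose by 4.14 (SE 0.17, adjusted p = 3.1e-05) and 3.57 (SE 0.28, adjusted p = 0.00089). Rnu11 lay at 9.47 and 9.33 in Arpc1bE_CdxE1_KO, 9.43 and 9.29 in CdxE2_KO and 4.99 and 5.54 in Ctrl. Rmrp, the RNA of RNase MRP, rose by 1.25 (adjusted p = 0.0057). In siTfap2c these 4 RNAs were at -0.43 to 0.03 against Ctrl. The part of the library difference in these results was not tested.

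Among longer RNAs, Tgoln2, a trans-Golgi network protein, lay at 5.20 and 5.28 in Arpc1bE_CdxE1_KO, 5.25 and 5.41 in CdxE2_KO and 0.81 and 0.77 in Ctrl. It too was under 1 linear unit in Ctrl and was kept through the knockout libraries. Its close copy Tgoln1, named after its values were seen, fell, at 3.71 and 3.41 in Arpc1bE_CdxE1_KO, 3.46 and 3.11 in CdxE2_KO and 4.96 and 4.96 in Ctrl (-1.40, adjusted p = 0.0057). Reads of the pair may be split between them, which was not tested. Lars2, the mitochondrial leucyl-tRNA synthetase, rose by 2.91 (SE 0.08, adjusted p = 3.7e-06), at 7.43 and 7.55 in Arpc1bE_CdxE1_KO and 4.59 and 4.56 in Ctrl. Rsc1a1, a regulator of a sugar transporter, rose by 2.55 (SE 0.20, adjusted p = 0.0010) and Tmem38b, an intracellular cation channel, by 1.91 (SE 0.16, adjusted p = 0.0013). Rsc1a1 lay at 6.77 and 6.59 in Arpc1bE_CdxE1_KO, 5.49 and 5.36 in CdxE2_KO and 3.80 and 4.47 in Ctrl, so that CdxE2_KO stood between them, though the difference of 1.26 from CdxE2_KO did not pass (adjusted p = 0.18). Hist1h2ad and Hist2h2aa2, replication-dependent histone genes of near-identical families, rose by 2.14 (SE 0.20, adjusted p = 0.0019) and 1.83 (SE 0.23, adjusted p = 0.0087).

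The largest fall was in Rpl26, a protein of the large ribosomal subunit, at 2.80 and 2.41 in Arpc1bE_CdxE1_KO, 2.45 and 2.25 in CdxE2_KO and 8.42 and 8.50 in Ctrl (-5.86, SE 0.15, adjusted p = 2.8e-06). In siTfap2c it differed from Ctrl by 0.04. Ribosomal protein genes have many processed copies, so reads may be assigned elsewhere, which was not tested. Snurf, which shares its transcript with Snrpn, and Amd1, an enzyme of polyamine synthesis with the copy Amd2, were also among the largest falls. Both averaged under 1 linear unit in Arpc1bE_CdxE1_KO and were kept through Ctrl, which sets their direction, so no fold is given. Both lay at about 0 in Arpc1bE_CdxE1_KO, Snurf at -0.12 and -0.07 and Amd1 at 0.16 and -0.04, against 3.05 and 4.53 for Snurf and 4.23 and 3.41 for Amd1 in Ctrl. Snrpn lay at 5.05 and 5.24 in Arpc1bE_CdxE1_KO and 5.12 and 4.56 in Ctrl, and Amd2 at 6.61 and 7.24 in Arpc1bE_CdxE1_KO and 6.90 and 6.97 in Ctrl, with 0 of this pair called.

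Oaz1, the antizyme that limits polyamine synthesis, fell by 3.33 (SE 0.43, adjusted p = 0.0097), Cnbp, an RNA-binding zinc finger protein, by 1.76 (SE 0.12, adjusted p = 0.00052) and Hnrnpa3, an RNA-packaging protein, by 1.88 (SE 0.37, adjusted p = 0.045). Wdr89, a WD-repeat protein, had -1.81 (SE 0.16, adjusted p = 0.0017) and Fam134c, a receptor for autophagy of the endoplasmic reticulum, -1.70 (SE 0.11, adjusted p = 0.00038). Of the 20 largest changes by the naming rule, Arpc1b and Dpm1-adnp passed against CdxE2_KO and the other 18 did not. The calls of Snurf, Oaz1, Hnrnpa3 and Hist2h2aa2 were lost without 1 or more of the 4 libraries, and the rest of the 20 kept theirs. Among those kept are Vaultrc5, Tgoln2 and Amd1, whose direction the filter sets. The fits without a library used the same filtered genes, so a kept call is no support for these genes.

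**Figure D4:**
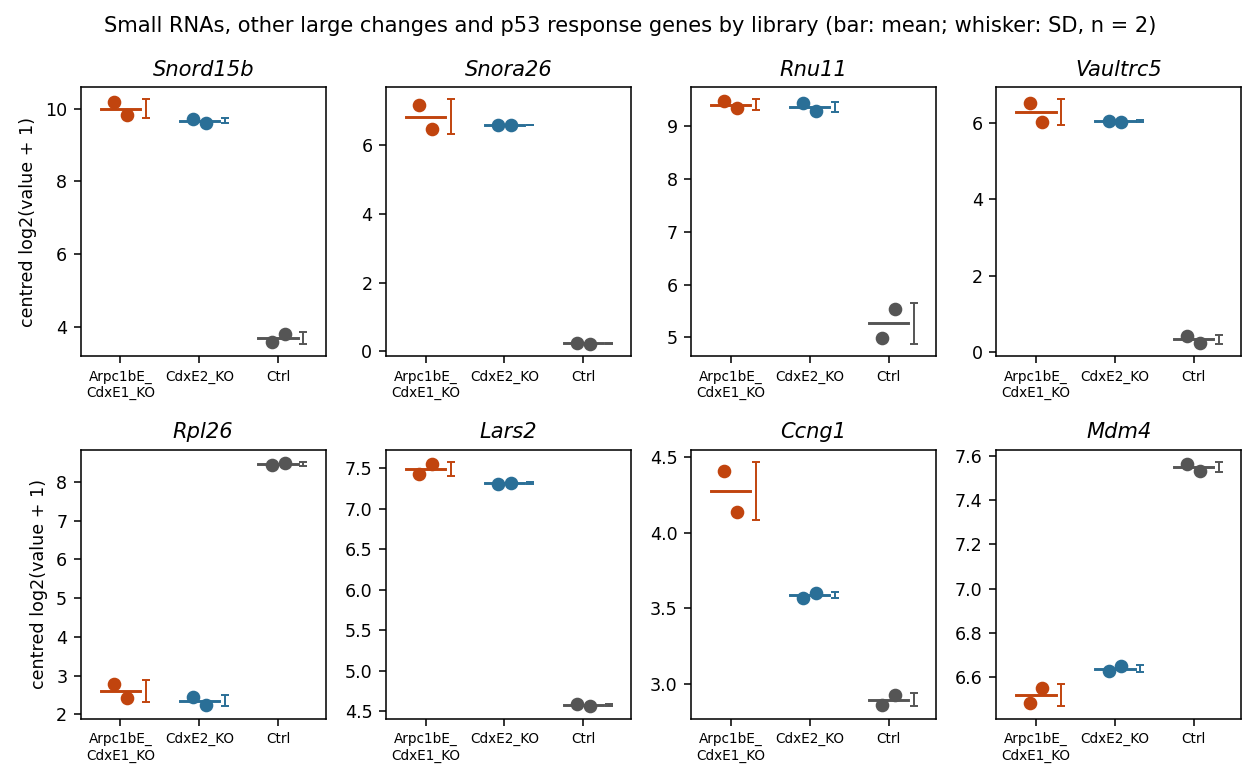
Level (centred log2(value + 1)) in each library of Arpc1bE_CdxE1_KO, CdxE2_KO and Ctrl for 4 small RNAs (Snord15b, Snora26, Rnu11, Vaultrc5), Rpl26, Lars2 and the p53 response genes Ccng1 and Mdm4; points are libraries, bars means and whiskers the SD (n = 2), and the vertical axes differ and do not start at 0. Snord15b lay at 10.18 and 9.83 in Arpc1bE_CdxE1_KO, against 3.59 and 3.82 in Ctrl, and Mdm4 at 6.48 and 6.55 in Arpc1bE_CdxE1_KO, against 7.57 and 7.53 in Ctrl; the genes of largest change were chosen with no overlap of libraries as a condition.

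The machinery of protein synthesis and respiration held calls in both directions, to be read against the 1.88% of all genes that were higher and the 1.55% that were lower. Of 83 cytosolic ribosomal protein genes 3 rose and 2 fell, with a median of 0.17; Rps29 rose by 0.80 and Rps15a by 0.72, and Rpl34 fell by 0.66 beside Rpl26. Of 74 nuclear genes of oxidative phosphorylation 5 rose and 1 fell, with a median of 0.14. The ATP synthase subunit Atp5k rose by 1.24 (adjusted p = 0.0057), the cytochrome oxidase subunit Cox6b1 by 0.97 and the complex I subunit Ndufb9 by 0.78, and Ndufs5, also of complex I, fell by 0.88. Of 77 mitochondrial ribosomal proteins 1 rose, Mrpl15 (0.69), and 1 fell, Mrps18b (-0.72), and of 45 proteasome subunits 1 rose, Psmb7 (0.55). Medians were 0.11 and 0.12 for these lists.

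Replication-dependent histones held genes that rose and genes that fell. Of 64 tested 6 rose and 2 fell against Ctrl, with a median of 0.14, and 2 were called without Ctrl replicate 1 and 1 without replicate 2. Against CdxE2_KO the median was 0.48 with 0 calls by limma (52 at an unadjusted p under 0.05, beside 1184 of all 10433). CdxE2_KO against Ctrl had a median of -0.38 with 3 higher and 17 lower. Hist1h2ao, which fell, lay at 4.77 and 4.73 in Arpc1bE_CdxE1_KO and 5.50 and 5.56 in Ctrl (-0.78, adjusted p = 0.0080), with -1.46 in CdxE2_KO against Ctrl, and Hist1h2ah fell by 0.79 (adjusted p = 0.0085). The near-identical coding sequences of these genes leave the split of reads among them uncertain.

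Calls in lists of transporters, metabolic genes and zinc finger genes are given beside 1.88% higher and 1.55% lower over all genes, and shares near these are not read as results about the lists. Of 158 solute carriers 3 rose and 4 fell (median -0.13), among them Slc16a1, a lactate and pyruvate carrier, which rose by 0.78 (adjusted p = 0.0052) and is also the one call among 18 glycolysis genes (median 0.20), and Slc19a2, a thiamine carrier, which rose by 0.94. Slc29a3, a nucleoside carrier, fell by 0.85 and Slc5a6, a vitamin carrier, by 0.52. Of 27 lysosomal and Tfeb family genes the protease Ctsl rose by 0.49 and the membrane protein Lamp1 fell by 0.43 (median -0.05). Of 214 numbered zinc finger genes 3 rose and 1 fell (median 0.02), with Zfp52 at 0.82, Zfp345 at 0.77, Zfp51 at 0.48 and Zfp710 at -0.47. Snurf was the only call among 28 imprinted genes (median -0.01). By limma 0 genes passed in sterol and fatty acid synthesis (27 tested, median -0.03, with 2 at an unadjusted p under 0.05), cell cycle and mitosis (38, 0.07, with 8), DNA replication (44, 0.04, with 10), the interferon response (6, -0.02, with 2) and Lsm proteins (12, 0.13, with 3). The count at that unadjusted p was 2404 over all 10433 genes.

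Markers of other stages and cell types were summed in linear units. Oocyte-inherited transcripts summed to 959 and 737 in Arpc1bE_CdxE1_KO, 788 and 787 in CdxE2_KO and 553 and 545 in Ctrl over 50 genes, and 2-cell-stage transcripts to 751 and 567 in Arpc1bE_CdxE1_KO, 549 and 565 in CdxE2_KO and 461 and 428 in Ctrl over 31 genes. These sums are not centred, and the library sums given above differ in the same order of groups. After centring, 1 of 38 tested oocyte transcripts rose (median 0.12). Of 15 tested 2-cell transcripts 0 passed by limma (median 0.14, with 4 at an unadjusted p under 0.05). Over all genes 1.88% were called higher and 2404 of 10433 had such an unadjusted p. These counts are therefore not read as results about the lists. The oocyte transcript that rose was Oog1, a germ cell gene with near-identical copies. It was listed at 0 in both Ctrl and both CdxE2_KO libraries and lay at 2.77 and 1.60 after centring in Arpc1bE_CdxE1_KO. Oog1 was kept through the knockout libraries, which sets its direction, so no fold is given. Cumulus and granulosa cell genes summed to 6.80 and 6.18 in Arpc1bE_CdxE1_KO and 5.17 and 4.66 in Ctrl over 20 genes, with Fshr, Inha, Lhcgr, Nr5a1 and Ptx3 listed at 0 in all 6 libraries of the table. Blood cell genes summed to 3.87 and 6.97 in Arpc1bE_CdxE1_KO and 2.46 and 2.61 in Ctrl over 11 genes, with the beta globins Hbb-b2, Hbb-bs and Hbb-bt listed at 0 in all 6 libraries. The spermatid sum ran from 0.593 to 1.66 and the fibroblast sum from 0.584 to 0.896 in these 4 libraries. Of the cumulus, blood, spermatid and fibroblast lists 3, 1, 0 and 0 genes were tested and 0 passed by limma (0 and 1 at an unadjusted p under 0.05 in the cumulus and blood lists). The part of these sums in the results above was not tested.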

How the data were processed

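The authors deposited 3 tables with a log2 value for each gene and library. Their lowest value is an exact 0, which fits a constant of 1 added before the log, and no source names the kind of abundance. The submitters' processing notes name mm10 as the build and HISAT2 2.1.0, SAMtools 1.7, StringTie 1.3.4 and Cufflinks as tools. Per the labels' protocols, random primers were used and ribosomal cDNA was depleted after amplification. No read counts were used here, and the depth is not known. The constant of 1 shrinks changes of genes with low values, and a 0 can be a failed estimate.

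The filter above (1 linear unit in 2 of the 4 libraries compared) was followed by limma 3.58.1 under R 4.3.3, with a variance trend in eBayes, on median-centred log2 values of the 6 libraries of the motif knockout table, 3 groups of 2, with 3 residual degrees of freedom. A call is a Benjamini-Hochberg adjusted p below 0.05 over all 10433 genes, and all adjusted p-values are from limma. siTfap2c was fitted on all 10 libraries, across tables that may have been scaled apart. The fit was tested on simulated data with 200 changed genes.

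Of 40 gene lists 37 had tested members (not the spermatid, fibroblast and mitochondrially encoded lists), and no set test was run. The comparison, the lists and the members named were chosen with earlier results of these data known. Named are Arpc1b, Cdx2, Tfap2c and Klf5, the tested Arp2/3 subunits, the 5 tested genes on each side of Arpc1b and Cdx2, the 10 largest rises and falls that were called, had no overlap of libraries and had a higher mean of at least 10 linear units (leaving out symbols of predicted genes, microRNAs, pseudogenes and small nucleolar or Cajal body RNAs), up to 4 called members per list with the lowest p, and the 3 largest rises and falls against CdxE2_KO. Genes said to be named after their values were seen are outside this rule, as are Sall1, Cdkn1a, Adnp, Snrpn, Amd2, Pou5f1 and the 6 further p53 genes. Positions are from GENCODE M21, or RefSeq GRCm38.p6 where a symbol was not there (24326 of 24421 symbols placed). Alternatives changed the centring, added constant, filter, libraries in the fit, variance trend and replicate block, and left out each library or the small RNA genes.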

Additional observations from a re-analysis of the deposited data

Results flagged for a closer look

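In 5 genes the direct test found a different level in Arpc1bE_CdxE1_KO and CdxE2_KO, 0.0479% of the genes tested. Arpc1b differed by -1.45 (adjusted p = 0.022) and Dpm1-adnp by -2.21 (adjusted p = 0.037), both lower in Arpc1bE_CdxE1_KO. Dbf4 differed by -0.77 (adjusted p = 0.041), also lower in Arpc1bE_CdxE1_KO. Lpar1 differed by 2.30 and Lsm5 by -1.74 (adjusted p = 0.0042 for each), where CdxE2_KO and not Arpc1bE_CdxE1_KO stood apart from Ctrl. Lpar1 and Lsm5 kept their calls without each of the 6 libraries in turn (highest adjusted p 0.030 and 0.028), but Lsm5 was not called on all 10 libraries (adjusted p = 0.24). Dpm1-adnp lost it without Arpc1bE_CdxE1_KO replicate 1 (0.051) and without either Ctrl library (0.12 each), and Dbf4 without either Ctrl library (0.21 each) and without CdxE2_KO replicate 1 (0.17) or replicate 2 (0.42). Both were also lost with no filter on low values (0.24 for Dpm1-adnp, 0.16 for Dbf4) and without the variance trend (0.14 and 0.24).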

How the results depend on the processing

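The count of 358 changed genes against Ctrl kept within 1.5 times with size factors, quantile normalization, added constants of 0.1 and 5, the replicate block and without small RNA genes. It was 2733 on the values as deposited, 580 with a filter at 5 linear units, 4317 with no filter, 196 on the 4 libraries compared, 904 on all 10 and 177 without the variance trend. Leaving out 1 library, with the same genes, gave 69 to 1223. The split was 2640 higher and 93 lower as deposited, 253 and 327 with the filter at 5, 858 and 3459 with no filter, 394 and 510 on all 10 libraries, 72 and 17 without Ctrl replicate 1 and 54 and 15 without Ctrl replicate 2. The 5 calls against CdxE2_KO became 2 with no filter, 18 on all 10 libraries and 2 without the trend, and 2 to 121 without 1 library. The 122 called list members became 519 as deposited, 376 with no filter, 221 on all 10 libraries, 75 without the trend and 74 without small RNA genes, and 42 to 292 without 1 library.

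Replicate numbers did not pair the libraries (correlation of same-numbered deviations 0.02 to 0.04), and with the replicate block 321 genes passed against Ctrl, 4 against CdxE2_KO (not Dbf4, adjusted p = 0.074) and 126 in the lists. Of 77 named genes called against Ctrl, 22 kept the call without each of the 4 libraries, 62 as deposited, 75 with size factors and 47 on the 4 libraries compared. The filter sets the direction of Amd1, Snora26, Tgoln2 and Vaultrc5, which are among the 22, so their kept calls are no support. None of the 77 changed sign in the alternatives run.

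Named genes that were not called changed sign in some settings. Against Ctrl the log2 fold change on the values as deposited was 0.143 for Actr3, 0.178 for Arpc2, 0.122 for Arpc4, 0.0801 for Baiap2l1, 0.0922 for Nptx2, 0.0804 for Trrap, 0.105 for Smurf1, 0.0105 for Bud31, 0.143 for Rpl21, 0.212 for Gtf3a, 0.0405 for Polr1d, 0.0607 for Pomp, 0.26 for Katnal1, 0.225 for Lpar1, 0.157 for Lsm5 and 0.233 for Fgfr2. With size factors it was 0.0132 for Katnal1. With quantile normalization it was -0.0094 for Arpc5. With an added constant of 0.1 it was -0.00084 for Arpc5. With an added constant of 5 it was -0.0198 for Arpc5l. With the filter at 5 linear units it was -0.0089 for Arpc5, -0.0202 for Arpc5l and -0.0037 for Mtus2. With no filter it was 0.0155 for Gtf3a, 0.0638 for Katnal1, 0.0284 for Lpar1 and 0.0369 for Fgfr2. Without 1 library in turn it ran from -0.0433 to 0.205 for Arpc3, -0.0567 to 0.0842 for Arpc5, -0.105 to 0.11 for Arpc5l, -0.479 to 0.0295 for Nptx2, -0.681 to 0.0686 for Bud31, -0.601 to 0.254 for Rpl21, -0.241 to 0.0307 for Gtf3a, -0.275 to 0.313 for Mtus2 and -0.188 to 0.0752 for Katnal1. Against CdxE2_KO it ran from -0.104 to 0.697 for Cdx2, -0.0525 to 0.157 for Tfap2c and -0.0554 to 0.134 for Klf5 without 1 library in turn, and with quantile normalization it was -0.0087 for Klf5. The cause was not tested. With 2 libraries a group and unknown depth, small differences and low genes are the least certain, and the fits without small RNA genes or a CdxE2_KO library were added after the data were seen.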
